A study of Mus musculus with 9 samples.

Results

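Collagens, laminins and integrins form the scaffold around cardiac muscle cells and the receptors that hold on to it. The genes described here are those whose symbol names a collagen chain, a laminin alpha, beta or gamma chain, or an integrin alpha or beta chain, and whose normalized count reached at least 10 in at least 3 of the 9 libraries. Of 86 such genes in the table, 66 passed this minimum, out of 13454 of 41128 genes in the whole series. They comprised 32 of 45 collagen rows, 9 of 11 laminin rows and 25 of 30 integrin rows. The symbols fit 62 chain genes and 4 genes that only share the start of the name. These 4 were Itgb1bp2, which encodes melusin, a muscle protein that binds the tail of the integrin beta1 chain, Itgb1bp1 and Itgb3bp, which are named for binding an integrin beta chain, and Col4a3bp, which encodes a ceramide transfer protein and no matrix component.

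Cardiomyocytes are wrapped in a basement membrane, a thin sheet in which a network of laminin lies on a network of type IV collagen. Fibrillar collagens, which are made mostly by fibroblasts, run between the cells and carry tension. Integrins are receptors of 1 alpha and 1 beta chain that span the cell membrane and tie laminin, collagen or fibronectin outside the cell to the contractile apparatus inside it.

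Nuclear RNA was sequenced from PCM-1+ nuclei of the left ventricle of FVB mice at an age of 12 days. PCM-1 coats the nuclei of cardiomyocytes, so that sorting with an antibody against it enriches them. Control mice numbered 3 (C1 to C3) and unstressed cKO mice 3 (U1 to U3). The last group was 3 cKO mice (S1 to S3) scored 1 for cardiac stress, with volume overload of the left ventricle, here called stressed cKO mice. The sample labels call the control mice wild type, whereas the methods of the study give them 1 floxed allele. All cKO mice carried Fstl1KO/fl;Tie2-Cre, in which Cre is active in the endothelial and endocardial lineage and not in cardiomyocytes, and in which 1 allele of Fstl1 is absent from all cells. The title of U3 calls it a heterozygous cKO, while its genotype entry equals that of the other cKO mice. The text of the study describes the control mice as female and the unstressed cKO mice as male, so sex and genotype cannot be told apart in that comparison. For the stressed cKO mice the sources used here give no sex of their own. Stress was scored in the sequenced mice by heart weight relative to body weight.

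The deposited values, here called normalized counts, are the reads of each gene after division by the size factor of its library. Behind them stood 8262684 to 12597012 reads in the control libraries, 8804295 to 11341764 in U1 to U3 and 10805513 to 12698502 in S1 to S3. Fstl1 had normalized counts of 124, 102 and 95.0 in control mice, 69.6, 98.6 and 125 in unstressed cKO mice and 97.4, 145 and 123 in stressed cKO mice, so the groups overlapped. Nppa, which ventricles under stress express, had normalized counts of 8.27, 109 and 28.5 in C1 to C3, 17.1, 8.50 and 19.5 in U1 to U3 and 208, 29.9 and 51.5 in S1 to S3, and the groups overlapped. By the mouse numbers in their titles the libraries form 2 series, with C2, C3 and S3 in series B and all others in series A. The sources used here do not say whether the series were handled apart. Cardiomyocyte markers were high in every library, with summed normalized counts of the 8 markers from 2329553 to 3855841.

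The 66 genes together held 0.324 to 0.391% of the counts of a library. Laminins held 0.134 to 0.185%, integrins 0.102 to 0.121% and collagens 0.0620 to 0.0899%. To compare genes with each other, normalized counts were divided by the exon length in kilobases. On this scale the highest mean level over the 9 libraries was that of Itgb1bp2, at 1295 ± 494 normalized counts per kilobase (SD over all libraries, n = 9). It was followed by Lamb2, a laminin beta chain of muscle basement membrane (585 ± 103), Itga5, the alpha chain of the main fibronectin receptor (537 ± 177), and Lama2, the laminin alpha chain of striated muscle (465 ± 81.1; SD, n = 9 each). The levels of Lamb2 and Itga5 did not differ beyond their spread over libraries. Among collagens the leading genes were Col4a2 (248 ± 33.8 normalized counts per kilobase) and Col4a1 (103 ± 14.6; SD, n = 9 each), the chains of the common type IV collagen. The fibrillar collagen gene Col1a1 followed at 81.8 ± 15.6 normalized counts per kilobase (SD, n = 9), within the spread of Col4a5, Col15a1 and Col5a1. The 20 genes under the minimum included Lama1, the laminin alpha chain of early embryos, Itgam, Itgax and Itgb2 of leukocytes and Itgb4 of epithelia.

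**Figure D1:**
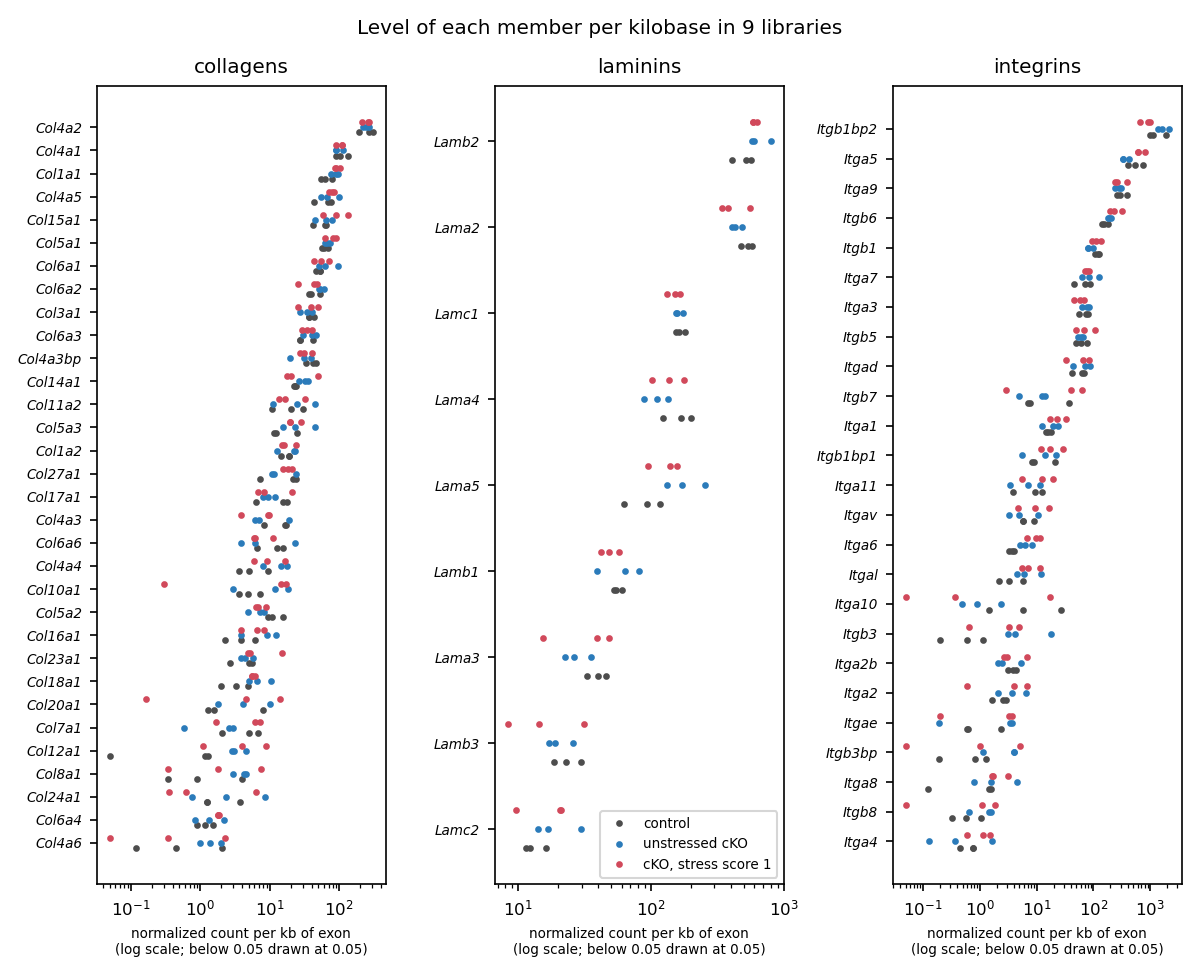
Normalized count per kilobase of exon (log axis) of each of the 66 genes in each of the 9 libraries, by family, with 1 point per library coloured by group. Itgb1bp2 has the highest mean level of all (1295), Lamb2 that of the laminins (585) and Col4a2 that of the collagens (248).

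For differences between groups, limma was run two-sided on log2(normalized count + 1) over all 13454 genes, with a threshold of 0.05 on the Benjamini-Hochberg adjusted p. On this scale the change of a gene with few counts can come out too small, or too large where a library holds no read of it. None of the 66 genes passed in any of the 3 comparisons with limma, DESeq2 or edgeR. Over all genes, limma and edgeR called 0% in every comparison. DESeq2, applied to the recovered reads, called 0.383% of 10435 genes between stressed cKO mice and control mice. It called 0.11% of 12710 genes between unstressed cKO and control mice and 0.253% of 13822 genes between both groups of cKO mice. These totals are the genes to which DESeq2 gave an adjusted p, a set other than the 13454 genes. DESeq2 gave an adjusted p for 54, 61 and 65 of the 66 genes in these comparisons, in the same order. The fold changes below are therefore descriptions, and differences of this size were not told apart from the spread between mice. In limma this spread was pooled over the 3 groups of 3 mice, so it is not that of the compared groups alone.

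At an unadjusted limma p under 0.05, 4 genes were higher and 1 was lower in stressed cKO mice than in control mice, against 4.38% and 3.29% of all genes, or 7.67% in both directions. DESeq2 gave 5 and edgeR 6 such genes in both directions together, against 1075 and 1033 of all 13454 genes. Between unstressed cKO and control mice, 4 genes were higher and 2 lower, against 2.43% and 1.74% of all genes (4.17% together), with 7 by DESeq2 and 7 by edgeR. Of all 13454 genes, 869 were at such a p by DESeq2 and 553 by edgeR. Of the 4 higher genes, Itgb3 passed the minimum through cKO libraries alone. Between both groups of cKO mice, 1 was higher with stress and 1 lower, against 3.08% and 3.26% (6.34% together), with 3 by DESeq2 and 2 by edgeR. There DESeq2 gave 979 and edgeR 845 of all 13454 genes. Both comparisons with control mice use the same 3 control mice.

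The 3 families did not have the same median fold change. Integrins had the largest median log2 fold change between stressed cKO mice and control mice, at 0.39, with 18 of 25 genes above 0. Among the 18 were Itgb3 and Itgb3bp, which passed the minimum through cKO libraries alone. The median was the value of Itgb3bp, which is no chain gene. Both genes were also above 0 between unstressed cKO and control mice. The collagen median was 0.08, with 21 of 32 genes above 0, and the laminin median was -0.19, with 3 of 9 above 0, whereas the median of all 13454 genes was -0.01. Without S1 the integrin median was 0.22. The summed normalized count of the 10 endothelial markers spanned 997 to 1461 (C1 to C3), 1245 to 1648 (U1 to U3) and 1443 to 1744 (S1 to S3). Of these 10 markers, 10 had a fold change above 0 between stressed cKO mice and control mice, with a median log2 fold change of 0.39. The part of endothelial nuclei in the integrin values was not tested. Between unstressed cKO and control mice the medians were 0.25 for collagens, -0.02 for laminins and 0.16 for integrins, with 22, 4 and 15 genes above 0 and a median of 0.01 over all genes. Between both groups of cKO mice they were -0.11, -0.12 and 0.19, with 15, 2 and 15 genes above 0 and a median of -0.01 over all genes. The collagen median of that comparison was 0.04 without S3.

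**Figure D2:**
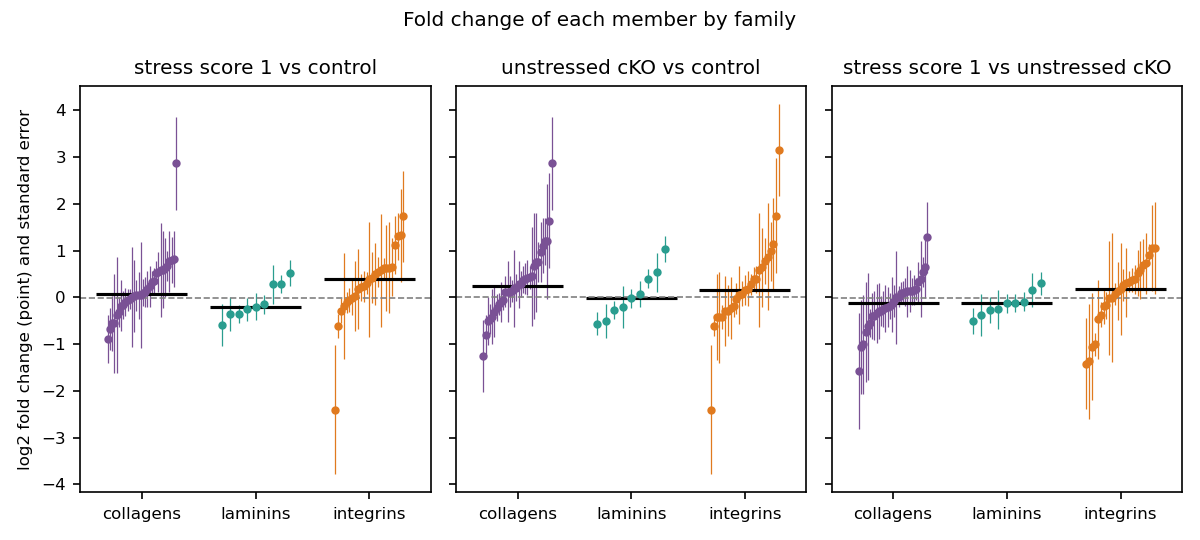
Log2 fold change of each of the 66 genes with its standard error from limma (vertical axis), by family, for the 3 comparisons. Black lines are family medians and the dashed line is the median of all genes tested. The integrin median between stressed cKO mice and control mice is 0.39, and the laminin median is -0.19. The former is the value of Itgb3bp, no chain gene, which passed the minimum through cKO libraries alone.

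Summed over a family, the groups overlapped. The summed normalized count of integrin genes was 9935, 12778 and 11291 in control mice, 10424, 10877 and 12158 in unstressed cKO mice and 12117, 11165 and 12704 in stressed cKO mice. The laminin sum was 16671, 18313 and 16924 in C1 to C3, 17655, 15498 and 18534 in U1 to U3 and 14255, 15489 and 18491 in S1 to S3, and the collagen sum was 7157, 8378 and 6901 in C1 to C3, 7882, 7794 and 8451 in U1 to U3 and 8818, 8303 and 7378 in S1 to S3. These sums follow the few most abundant genes, so each family is given by the role of its members.

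Of the 11 genes of basement membrane and network collagens that passed, 7 had a fold change above 0 between stressed cKO mice and control mice, with a median log2 fold change of 0.03. Col4a1 and Col4a2 encode the chains of the type IV collagen found in nearly all basement membranes. They lie head to head on chromosome 8 of mm10, overlapping by 22 bp, and their exons overlap on opposite strands. The sources used here do not say whether reads were counted by strand, so reads of the overlap could go to either gene. Of the genes named here, Col15a1, Col4a3, Col4a3bp, Col5a1, Itga7, Itgad, Itgav, Itgb1bp1, Itgb3bp and Lama2 also have exons that overlap annotated genes on the opposite strand, and Col3a1, Col7a1, Itga1, Itga10 and Itgad on the same strand. Col4a2 had a normalized count of 1752, 2013 and 1292 in C1 to C3, 1457, 1756 and 1599 in U1 to U3 and 1775, 1404 and 1714 in S1 to S3. That of Col4a1 was 769.2, 985 and 680.5 in C1 to C3, 676, 666 and 843 in U1 to U3 and 824, 674 and 826 in S1 to S3. The groups overlapped for both genes. Their ratio per kilobase, Col4a2 over Col4a1, stayed between 2.14 and 2.97 in the 9 libraries.

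Col4a4 and Col4a3 encode type IV chains that are best known from the filter of the kidney. They also lie head to head, with the start of Col4a4 (chromosome 1 from 82448423 to 82586849, minus strand) and that of Col4a3 (chromosome 1 from 82586921 to 82722059, plus strand) separated by 71 bp in the GENCODE M21 annotation of mm10. The bases between these starts are shown because they are all that lies between both genes, whose levels did not keep a fixed ratio. They are given 5′ to 3′ on the minus strand, in the direction of Col4a4, from the RefSeq assembly GRCm38.p6 at chr1:82586850-82586920, with no letter in capitals since no searched motif was present.
Col4a4 to Col4a3 gap: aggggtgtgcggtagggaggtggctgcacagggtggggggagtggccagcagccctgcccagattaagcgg
Of these bases 69.0% were G or C, against a median of 54.9% in 32851 promoter windows of the same length. Motifs were searched on both strands. The TATA box TATAAA was not among these letters, and 4.41% of those windows held it. A CCAAT box, spelled CCAAT, was not found either, against 13.3% of the windows. The GC box GGGCGG, held by 20.7% of the windows, had no match.

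Col4a4 had a normalized count of 37.8, 52.9 and 98.8 in C1 to C3, 188, 152 and 86.1 in U1 to U3 and 63.1, 96.6 and 176 in S1 to S3. That of Col4a3 was 168, 164 and 81.7 in C1 to C3, 189, 68.9 and 60.3 in U1 to U3 and 94.7, 95.7 and 38.4 in S1 to S3. C1 and C2 had the lowest counts of Col4a4 and, after U1, the highest of Col4a3. The ratio per kilobase of Col4a4 to Col4a3 was 0.212, 0.303 and 1.14 in control mice, 0.934, 2.08 and 1.34 in unstressed cKO mice and 0.626, 0.948 and 4.31 in stressed cKO mice. For Col4a4 the log2 fold change between unstressed cKO and control mice was 1.20 (standard error 0.50, unadjusted p = 0.0264, adjusted p = 0.99955 from limma), and within series A, with 1 control mouse, it was 1.81. For Col4a3 the log2 fold change between stressed cKO mice and control mice was -0.89 (standard error 0.52, unadjusted p = 0.104, adjusted p = 0.736 from limma).

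Col15a1 and Col18a1 encode collagens with sugar side chains that sit at the outer face of basement membranes. Col15a1 had a normalized count of 269, 412 and 401 in C1 to C3, 499.9, 409 and 284 in U1 to U3 and 847, 574 and 366 in S1 to S3. S1 was the highest of all libraries, and the groups overlapped. The log2 fold change between stressed cKO mice and control mice was 0.67 (standard error 0.32, unadjusted p = 0.0539, adjusted p = 0.656 from limma). It was 1.37 within series A (2 mice against 1), -0.15 within series B (1 against 2) and 0.37 without S1.

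Col18a1 had a normalized count of 14.2, 34.1 and 22.8 in C1 to C3, 74.2, 35.7 and 45.3 in U1 to U3 and 38.8, 43.6 and 38.4 in S1 to S3. All 6 cKO libraries lay above all 3 control libraries. This held for 3 of the 66 genes, Col18a1, Itga6 and Lamb2, and for 1.29% of all genes. For Col18a1 the log2 fold change was 1.11 (standard error 0.60, unadjusted p = 0.0787, adjusted p = 0.99955 from limma) between unstressed cKO and control mice and 0.82 (standard error 0.60, unadjusted p = 0.185, adjusted p = 0.797 from limma) between stressed cKO mice and control mice.

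Col7a1, which encodes the collagen of anchoring fibrils, had a normalized count of 21.3, 70.0 and 51.3 in C1 to C3, 30.8, 5.95 and 26.6 in U1 to U3 and 17.1, 74.4 and 63.7 in S1 to S3. S1 lay with the unstressed cKO mice, and S2 and S3 with C2 and C3. Here the log2 fold change of Col7a1 was -1.25 (standard error 0.76, unadjusted p = 0.118, adjusted p = 0.99955 from limma) between unstressed cKO and control mice and 1.29 (standard error 0.76, unadjusted p = 0.109, adjusted p = 0.841 from limma) between both groups of cKO mice. Without U2 they were -0.56 and 0.59, and the latter was 1.93 without S1.

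Of the 9 fibrillar collagen genes, 6 had a fold change above 0 between stressed cKO mice and control mice, with a median log2 fold change of 0.05. Col1a1, which encodes the alpha1 chain of type I collagen, had a normalized count of 509, 414 and 354 in control mice, 592, 495 and 631 in unstressed cKO mice and 591, 668 and 577 in stressed cKO mice. All 3 stressed cKO mice lay above all control mice, as in 7 of the 66 genes and 5.8% of all genes. The log2 fold change of Col1a1 was 0.53 (standard error 0.25, unadjusted p = 0.0437, adjusted p = 0.646 from limma), with 0.30 within series A and 0.59 within series B. Fibroblasts are the main source of this collagen, and the 10 fibroblast markers summed to 1288 to 1776 in C1 to C3, 1498 to 2166 in U1 to U3 and 1397 to 2501 in S1 to S3. Postn and Fbn1 gave most of this sum. Of the 10 markers, 4 had a fold change above 0 between stressed cKO mice and control mice, with a median log2 fold change of -0.18. Their part in the counts of Col1a1 was not tested.

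The partner chain Col1a2 had a normalized count of 181, 235 and 232 in C1 to C3, 159.8, 273 and 291 in U1 to U3 and 200.3, 294 and 185 in S1 to S3, and its groups overlapped. Per kilobase, Col1a1 was 2.89 to 7.02 times as high as Col1a2 in the 9 libraries. Col3a1, the type III chain, had a normalized count of 363, 361 and 426 in C1 to C3, 265, 404 and 332 in U1 to U3 and 384, 479.5 and 249 in S1 to S3. U1, U3 and S3 were the lowest and S2 the highest, and the groups overlapped.

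Col5a2, a chain of the type V collagen that lies within type I fibrils, was the only gene of the 66 with all 6 cKO libraries below all control libraries, against 1.22% of all genes. Stressed cKO mice lay below control mice without overlap in this gene and in Itgb1bp2, against 5.28% of all genes. Col5a2 had a normalized count of 103, 148 and 89.3 in C1 to C3, 68.5, 78.2 and 46.1 in U1 to U3 and 64.1, 61.5 and 83.4 in S1 to S3. Its log2 fold change was -0.81 (standard error 0.44, unadjusted p = 0.0835, adjusted p = 0.99955 from limma) between unstressed cKO and control mice and -0.68 (standard error 0.44, unadjusted p = 0.144, adjusted p = 0.772 from limma) between stressed cKO mice and control mice. Its other chain Col5a1 had a normalized count of 474, 506 and 589 in C1 to C3, 568, 525 and 632 in U1 to U3 and 762, 679 and 534 in S1 to S3, with S1 and S2 the highest of all libraries.

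Of the 9 genes of beaded collagens and of collagens that bind along fibrils, 7 had a fold change above 0 between stressed cKO mice and control mice, and 8 between unstressed cKO and control mice. Their median log2 fold changes were 0.12 and 0.41. Col12a1 encodes a collagen that binds along type I fibrils. Its normalized count was 17.7, 19.7 and 0 in C1 to C3, 43.4, 46.8 and 70.1 in U1 to U3 and 135, 61.5 and 16.9 in S1 to S3. All unstressed cKO mice lay above all control mice, whereas S3 lay below C1 and C2. There the log2 fold change was 2.87 (standard error 0.99, unadjusted p = 0.00954, adjusted p = 0.99955 from limma) between unstressed cKO and control mice and 2.87 (standard error 0.99, unadjusted p = 0.00943, adjusted p = 0.553 from limma) between stressed cKO mice and control mice. It rested on C3, which held no read of the gene: without C3 these values were 1.43 and 1.44.

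Type VI collagen forms beaded filaments next to the basement membrane. Col6a2 had a normalized count of 324, 303 and 435 in C1 to C3, 441, 429 and 502 in U1 to U3 and 355, 403 and 214 in S1 to S3. All stressed cKO mice lay below all unstressed cKO mice, as for 2 of the 66 genes and 6.04% of all genes. Here the log2 fold change was -0.54 (standard error 0.29, unadjusted p = 0.0799, adjusted p = 0.811 from limma), and -0.27 without S3. Col6a1, another chain of the same collagen, had a normalized count of 202, 229 and 235 in C1 to C3, 221, 273 and 419 in U1 to U3 and 311, 242 and 186 in S1 to S3, and its groups overlapped.

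**Figure D3:**
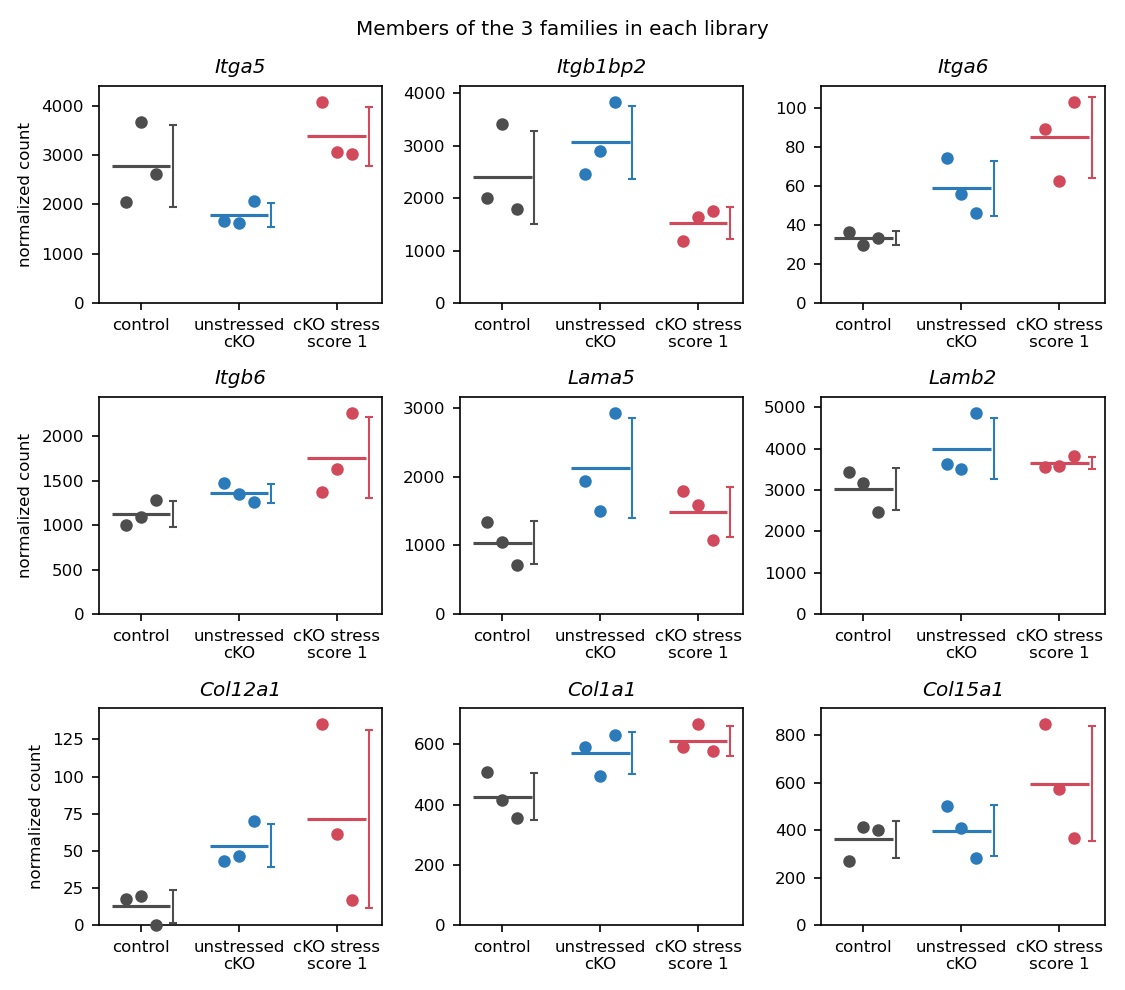
Normalized count (vertical axis, from 0) of 9 of the genes in each library, with 1 point per mouse, a line at the mean of the 3 mice of a group and a bar of 1 SD beside it. Itga5 and Itgb1bp2 show no overlap between unstressed cKO mice and stressed cKO mice, and all 6 cKO points of Itga6 and Lamb2 lie above the control points.

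Laminins are trimers of 1 alpha, 1 beta and 1 gamma chain. Lama2, whose chain dominates the laminin of heart and skeletal muscle, had the highest normalized count of the 66 genes, at 7801, 9362 and 8777 in control mice, 7948, 6984 and 6685 in unstressed cKO mice and 5577, 6167 and 9023 in stressed cKO mice. S1 and S2 were the lowest of all libraries, and S3 lay within the control range. The log2 fold change between stressed cKO mice and control mice was -0.35 (standard error 0.20, unadjusted p = 0.0946, adjusted p = 0.723 from limma), with -0.41 within series A and -0.01 within series B. Between unstressed cKO and control mice it was -0.26 (standard error 0.20, unadjusted p = 0.201, adjusted p = 0.99955 from limma), and it was 0.017 with the title series as a covariate.

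Lama5, a laminin alpha chain of many tissues, had a normalized count of 1339.9, 1054 and 714 in C1 to C3, 1944, 1507 and 2926 in U1 to U3 and 1785, 1583 and 1076 in S1 to S3. All unstressed cKO mice lay above all control mice, as in 7 of the 66 genes and 5.19% of all genes. Among the 7 was Itgb3, which passed the minimum only through cKO libraries. The log2 fold change of Lama5 was 1.03 (standard error 0.28, unadjusted p = 0.00164, adjusted p = 0.99955 from limma), and DESeq2 gave an adjusted p of 0.147. It was 0.61 within series A, with 1 control mouse, and 0.77 without U3. Between stressed cKO mice and control mice the log2 fold change of Lama5 was 0.53 (standard error 0.28, unadjusted p = 0.0734, adjusted p = 0.694 from limma), and S3 lay within the control range.

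Lama4, a chain of blood vessel basement membranes, had a normalized count of 1491, 2033 and 2434 in C1 to C3, 1329.7, 1069.8 and 1626 in U1 to U3 and 1237, 1635 and 2139 in S1 to S3. There the log2 fold change was -0.56 (standard error 0.25, unadjusted p = 0.0374, adjusted p = 0.99955 from limma) between unstressed cKO and control mice, where the groups overlapped, and -0.17 within series A. Between both groups of cKO mice it was 0.30 (standard error 0.25, unadjusted p = 0.242, adjusted p = 0.885 from limma). The ratio per kilobase of Lama2 to Lama4 ranged from 2.66 to 4.82.

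The laminin beta chain Lamb2 had a normalized count of 3436, 3168 and 2467 in C1 to C3, 3636, 3513 and 4860.5 in U1 to U3 and 3548, 3586 and 3827 in S1 to S3. The 3 stressed cKO mice lay within a narrow range above all control mice. Here the log2 fold change was 0.40 (standard error 0.20, unadjusted p = 0.0559, adjusted p = 0.99955 from limma) between unstressed cKO and control mice and 0.29 (standard error 0.20, unadjusted p = 0.165, adjusted p = 0.788 from limma) between stressed cKO mice and control mice. Within series A it was 0.20 and 0.05, and within series B, where only stressed cKO and control mice were present, it was 0.45.

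Lamb2 exceeded Lamb1, the beta chain of earlier stages, 6.66 to 14.9 times per kilobase in the 9 libraries. Lamb1 had a normalized count of 522, 542 and 604 in C1 to C3, 811, 386 and 632 in U1 to U3 and 479, 569 and 419.6 in S1 to S3. The gamma chain Lamc1, which most laminins share, had a normalized count of 1482, 1335 and 1275 in C1 to C3, 1444, 1306 and 1279 in U1 to U3 and 1088, 1258 and 1367 in S1 to S3, and its groups overlapped. Lamb3, a beta chain of epithelial laminin, had a normalized count of 152, 197 and 124 in C1 to C3, 126, 112 and 172 in U1 to U3 and 207, 94.9 and 55.3 in S1 to S3 and a log2 fold change of -0.58 (standard error 0.45, unadjusted p = 0.206, adjusted p = 0.798 from limma) between stressed cKO mice and control mice. That value was -1.09 without S1 and -0.14 without S3.

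Integrin alpha chains decide what a receptor binds. The 6 alpha chains that bind fibronectin and other ligands had a median log2 fold change of 0.51 between both groups of cKO mice, with 6 of 6 above 0, against -0.28 and 1 of 6 between unstressed cKO and control mice. Both comparisons use the same unstressed cKO mice. Most of the counts in this group came from Itga5 and Itga9.

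Itga5, the alpha chain of the main fibronectin receptor (chromosome 15 from 103344286 to 103366763 of mm10), had a normalized count of 2043, 3666 and 2622 in control mice, 1661, 1617 and 2071 in unstressed cKO mice and 4070.4, 3051 and 3023 in stressed cKO mice. All 3 stressed cKO mice lay above all unstressed cKO mice, the only gene of the 66 with this pattern, which 5.31% of all genes had. The control mice overlapped both. Between both groups of cKO mice the log2 fold change was 0.92 (standard error 0.23, unadjusted p = 0.000698, adjusted p = 0.557 from limma), the smallest unadjusted p of the 66 genes, and DESeq2 gave an adjusted p of 0.058. It was 0.99 within series A (2 mice against 3) and 0.78 to 1.03 when each library was left out in turn. The log2 fold change between unstressed cKO and control mice was -0.61 (standard error 0.23, unadjusted p = 0.0151, adjusted p = 0.99955 from limma), with -0.21 within series A and -0.39 without C2. Between stressed cKO mice and control mice it was 0.31 (standard error 0.23, unadjusted p = 0.185, adjusted p = 0.797 from limma), with 0.11 without C1, 0.53 without C2 and 0.17 without S1. In that comparison it was 0.79 within series A (2 mice against 1) and -0.04 within series B (1 against 2). Itga9, the alpha chain of a receptor for tenascin and other ligands, had a normalized count of 1977, 2241 and 3048 in C1 to C3, 2350.0, 1811 and 2175 in U1 to U3 and 1996, 1815 and 3009 in S1 to S3, and its groups overlapped.

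The laminin-binding alpha chains were led by Itga7, the form typical of muscle, with a normalized count of 709, 373 and 570.2 in C1 to C3, 501, 1003 and 678 in U1 to U3 and 622, 674 and 569 in S1 to S3. The groups overlapped. Itga6, a laminin-binding chain of epithelia and vessels, had a normalized count of 36.6, 29.6 and 33.3 in C1 to C3, 74.2, 56.1 and 46.1 in U1 to U3 and 89.3, 62.4 and 103 in S1 to S3. All 6 cKO libraries lay above all control libraries, and S1 and S3 were the highest. Here the log2 fold change of Itga6 was 1.31 (standard error 0.50, unadjusted p = 0.0165, adjusted p = 0.58 from limma) between stressed cKO mice and control mice, with 1.01 within series A and 1.68 within series B. Between unstressed cKO and control mice it was 0.79 (standard error 0.50, unadjusted p = 0.129, adjusted p = 0.99955 from limma). The ratio per kilobase of Itga7 to Itga6 was 21.6, 14.1 and 19.1 in control mice, 7.53, 19.9 and 16.4 in unstressed cKO mice and 7.77, 12.1 and 6.15 in stressed cKO mice. All 3 mice of the last group lay below the control mice in this ratio, as the counts of Itga6 alone also did not overlap between these groups. The ratio was chosen after the values were seen and was not tested. Itga3 had a normalized count of 464, 417 and 323 in C1 to C3, 363, 469 and 439 in U1 to U3 and 263, 335 and 395 in S1 to S3 and a log2 fold change of -0.37 (standard error 0.28, unadjusted p = 0.2, adjusted p = 0.871 from limma) between both groups of cKO mice.

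Of the 4 collagen-binding alpha chains, Itga1 had the highest normalized count, at 293, 275 and 335 in C1 to C3, 232, 452 and 363 in U1 to U3 and 624, 424 and 321 in S1 to S3. S1 lay above all others, and the log2 fold change between stressed cKO mice and control mice was 0.55 (standard error 0.31, unadjusted p = 0.0975, adjusted p = 0.725 from limma). Itga10 was uneven within groups, with a normalized count of 142, 30.5 and 7.60 in C1 to C3, 4.57, 2.55 and 12.4 in U1 to U3 and 91.1, 0 and 1.87 in S1 to S3. C1 and S1 stood far above the rest. Its log2 fold change was -2.40 (standard error 1.38, unadjusted p = 0.0983, adjusted p = 0.99955 from limma) between unstressed cKO and control mice, and -1.36 without C1.

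Of the leukocyte alpha chains, Itgad had a normalized count of 306, 285 and 192 in C1 to C3, 390.3, 195 and 326 in U1 to U3 and 296, 377 and 149.9 in S1 to S3. Its exons overlap those of Cox6a2, a heart and muscle gene of the respiratory chain, on the opposite strand, and Cox6a2 had a normalized count of 224 to 551. Reads of both genes cannot be told apart without strand, so the level of Itgad is uncertain. Itgal, the alpha chain of a lymphocyte receptor, had a normalized count of 21.3, 37.7 and 14.3 in C1 to C3, 29.7, 40.0 and 79.9 in U1 to U3 and 74.9, 36.8 and 46.8 in S1 to S3. Its log2 fold change was 1.13 (standard error 0.62, unadjusted p = 0.0855, adjusted p = 0.715 from limma) between stressed cKO mice and control mice and 0.98 (standard error 0.62, unadjusted p = 0.13, adjusted p = 0.99955 from limma) between unstressed cKO and control mice. Itgb2, its partner chain, was under the minimum.

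Of the 6 integrin beta chains, 4 had a fold change above 0 between stressed cKO mice and control mice, with a median log2 fold change of 0.43. Among the 4 was Itgb3, which passed the minimum only through cKO libraries and had the largest fold change of the 6. The summed normalized count of the 6 chains was 1714, 1820.4 and 2100.3 in C1 to C3, 2093, 2018 and 1957 in U1 to U3 and 2332, 2435 and 3088 in S1 to S3. All 3 stressed cKO mice lay above the other 6 libraries in this sum, the only sum by role with this pattern, which was not tested. Itgb7 was uneven within groups, with 104, 21.5 and 20.0 in C1 to C3, 13.7, 34.0 and 39.0 in U1 to U3 and 8.12, 111 and 178 in S1 to S3. This sum was led by Itgb6, which joins the alpha v chain in a receptor known from epithelia for activating latent TGF-beta. Itgb6 had a normalized count of 997, 1094 and 1285 in C1 to C3, 1475, 1349 and 1263 in U1 to U3 and 1379, 1638 and 2264 in S1 to S3. Its log2 fold change was 0.62 (standard error 0.22, unadjusted p = 0.0117, adjusted p = 0.576 from limma) between stressed cKO mice and control mice, with 0.59 within series A and 0.93 within series B. Between both groups of cKO mice it was 0.34 (standard error 0.22, unadjusted p = 0.141, adjusted p = 0.858 from limma), and the groups overlapped. Per kilobase, Itgb6 exceeded Itgav, the gene of its alpha partner, 11.6 to 66.4 times.

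Itgb1 encodes the beta chain that most laminin, collagen and fibronectin receptors share. Its normalized count was 435, 484 and 508 in C1 to C3, 333, 406 and 334 in U1 to U3 and 547, 391 and 456 in S1 to S3. All unstressed cKO mice lay below all control mice, as for 2 of the 66 genes and 5.36% of all genes. There the log2 fold change was -0.41 (standard error 0.26, unadjusted p = 0.122, adjusted p = 0.99955 from limma) between unstressed cKO and control mice and 0.37 (standard error 0.26, unadjusted p = 0.166, adjusted p = 0.859 from limma) between both groups of cKO mice.

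Itgb3, a beta chain of platelets and vessels, had a normalized count of 1.18, 3.59 and 6.65 in C1 to C3, 25.1, 18.7 and 104 in U1 to U3 and 18.9, 29.1 and 3.75 in S1 to S3. U3 stood far above the rest. No control library reached 10, so the gene passed the minimum only through cKO libraries, and its difference from control mice is given by these values without a test. Between both groups of cKO mice the log2 fold change was -1.41 (standard error 0.98, unadjusted p = 0.163, adjusted p = 0.858 from limma), with -0.68 without U3 and -0.63 without S3.

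Itgb1bp2 encodes melusin, which is restricted to heart and skeletal muscle and takes part in the response to mechanical load. It lies on chromosome X from 101449088 to 101453541 of mm10. Its normalized count was 1999, 3413 and 1786 in C1 to C3, 2461, 2903 and 3829 in U1 to U3 and 1178, 1638 and 1755 in S1 to S3. All 3 stressed cKO mice lay below the other 6 libraries, the only gene of the 66 with this pattern, which 1.75% of all genes had. None of the 66 had S1 to S3 above the other 6 libraries, against 1.72% of all genes. Between both groups of cKO mice the log2 fold change was -1.004 (standard error 0.25, unadjusted p = 0.000869, adjusted p = 0.557 from limma), and DESeq2 gave an adjusted p of 0.0581. It was -1.12 within series A and -1.15 to -0.83 when each library was left out in turn. Between stressed cKO mice and control mice it was -0.62 (standard error 0.25, unadjusted p = 0.0257, adjusted p = 0.61 from limma), with -0.53 within series A and -0.49 within series B, and -0.33 without C2. The gene is X-linked, and the part of sex in its values was not tested.

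Between the groups of cKO mice, the fold changes of Itga5 and Itgb1bp2 had opposite signs. The ratio per kilobase of Itga5 to Itgb1bp2 was 0.373, 0.392 and 0.535 in control mice, 0.246, 0.203 and 0.197 in unstressed cKO mice and 1.26, 0.68 and 0.628 in stressed cKO mice. The 3 groups did not overlap in this ratio, which was chosen after the values of both genes were seen and was not tested.

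**Figure D4:**
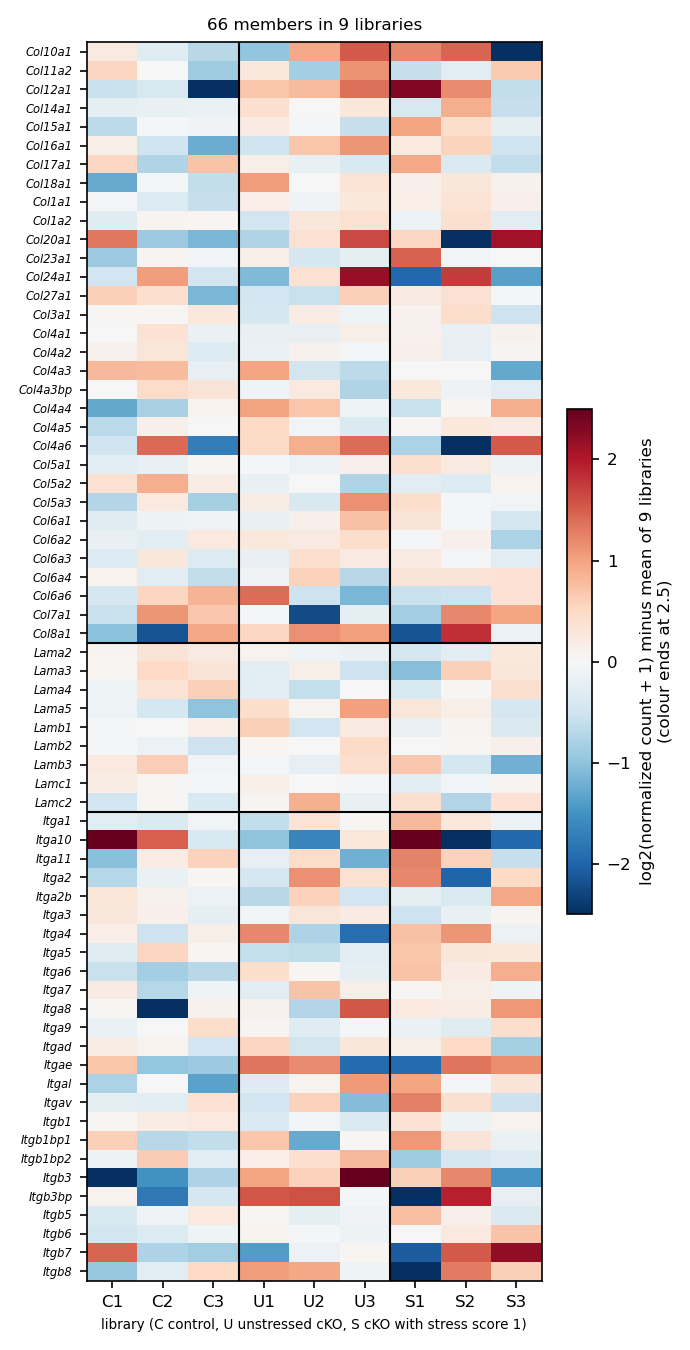
Log2(normalized count + 1) minus the mean of the 9 libraries for each of the 66 genes (rows, by family) in each library (columns, by group). Red is above and blue below the mean of the gene, and the colour ends at 2.5. S1 has the highest value for 8 of 25 integrin genes and U3 for 7 of 32 collagen genes.

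No library was highest for most genes of a family. U3 had the highest value for 7 of 32 collagen genes, S2 for 6, and S1 and U1 for 5 each. S1 had the highest value for 8 of 25 integrin genes. The median deviation of integrin genes from their means over all libraries, on the log2 scale, was -0.13, -0.26 and -0.10 in control mice, 0.03, 0.09 and -0.04 in unstressed cKO mice and 0.36, 0.25 and 0.06 in stressed cKO mice. For collagens it ranged from -0.27 in C1 to 0.25 in U3, and for laminins from -0.17 in S1 to 0.12 in S3. The spread of the members within groups was a median SD of 0.53 on the log2 scale, against 0.61 over all genes. Among genes with a mean normalized count of at least 100 it was 0.36 for 37 of the 66 genes and 0.38 for all 6253 genes.

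Other genes that build or read this matrix were listed by role. The lists were made with earlier results of these data known, so their shares below are descriptions and were not tested. None of the listed genes was called by limma. Of 21 genes that process collagen, 4 were higher and 1 was lower at an unadjusted limma p under 0.05 between stressed cKO mice and control mice, or 23.8% against 7.67% of all genes. Between unstressed cKO and control mice it was 1 gene (4.76% against 4.17%), and between both groups of cKO mice 3 (14.3% against 6.34%). Serpinh1, a chaperone that collagen chains need for folding, had a normalized count of 246, 194 and 154 in C1 to C3, 135, 172 and 304 in U1 to U3 and 92.9, 58.1 and 111 in S1 to S3. All stressed cKO mice lay below the other 6 libraries, as for 1.75% of all genes. Here the log2 fold change of Serpinh1 was -1.19 (standard error 0.40, unadjusted p = 0.00763, adjusted p = 0.538 from limma) against control mice and -1.17 (standard error 0.40, unadjusted p = 0.00848, adjusted p = 0.729 from limma) against unstressed cKO mice. Plod2, a lysyl hydroxylase of collagen, was at a log2 fold change of 0.74 (standard error 0.30, unadjusted p = 0.0245, adjusted p = 0.608 from limma) against control mice. Pcolce, which enhances the cleavage of procollagen, was at 0.87 (standard error 0.36, unadjusted p = 0.0247, adjusted p = 0.609 from limma), and Mmp14, a membrane-bound protease that cuts collagen, at 1.04 (standard error 0.47, unadjusted p = 0.0402, adjusted p = 0.639 from limma). P4ha2, a prolyl hydroxylase of collagen, had a normalized count of 727, 525 and 523 in C1 to C3, 1488, 889.5 and 988 in U1 to U3 and 832, 910.3 and 818 in S1 to S3. Its log2 fold change was 0.90 (standard error 0.25, unadjusted p = 0.00167, adjusted p = 0.99955 from limma) between unstressed cKO and control mice and 0.54 (standard error 0.25, unadjusted p = 0.0399, adjusted p = 0.639 from limma) between stressed cKO mice and control mice.

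Of 12 other basement membrane genes, 3 were higher and 0 lower at an unadjusted limma p under 0.05 between stressed cKO mice and control mice, or 25% against 7.67% of all genes. These 3 were Nid2, Hspg2 and Fn1. Nid2, which links laminin to type IV collagen, was at 1.51 (standard error 0.47, unadjusted p = 0.0047, adjusted p = 0.474 from limma) on the log2 scale. Hspg2, which encodes perlecan, was at 0.47 (standard error 0.19, unadjusted p = 0.0227, adjusted p = 0.598 from limma). Fn1, which encodes fibronectin, the ligand of the Itga5 receptor, was at 0.66 (standard error 0.28, unadjusted p = 0.0308, adjusted p = 0.621 from limma). Fn1 had a normalized count of 396, 606 and 510.3 in C1 to C3, 523, 623 and 776 in U1 to U3 and 763, 1146 and 557 in S1 to S3. Between unstressed cKO and control mice 1 of the 12 was higher (8.33% against 4.17% of all genes), Smoc2, at 1.45 (standard error 0.64, unadjusted p = 0.0357, adjusted p = 0.99955 from limma). In stressed against unstressed cKO mice 2 were higher (16.7% against 6.34%), Fras1, at 1.32 (standard error 0.60, unadjusted p = 0.0411, adjusted p = 0.775 from limma), and Frem1. Frem1 had a normalized count of 30.7, 42.2 and 57.0 in C1 to C3, 9.13, 34.0 and 10.6 in U1 to U3 and 45.1, 76.9 and 274 in S1 to S3 and a log2 fold change of 2.63 (standard error 0.70, unadjusted p = 0.00135, adjusted p = 0.587 from limma) between both groups of cKO mice. DESeq2 called Frem1 with an adjusted p of 0.0333, while S3 stood far above the rest, and the log2 fold change was 1.90 without S3.

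Of 21 genes of focal adhesions and costameres, the sites where integrins join the sarcomere, 1 was higher and 0 were lower at an unadjusted limma p under 0.05 between stressed cKO mice and control mice (4.76% against 7.67% of all genes). It was Zyx, which encodes zyxin, with a normalized count of 477, 504 and 456 in C1 to C3, 1039, 417 and 566 in U1 to U3 and 1105, 769.3 and 732 in S1 to S3 and a log2 fold change of 0.83 (standard error 0.30, unadjusted p = 0.0115, adjusted p = 0.576 from limma). Between unstressed cKO and control mice 1 was lower (4.76% against 4.17%). This was Nrap, which anchors myofibrils, at a log2 fold change of -0.72 (standard error 0.25, unadjusted p = 0.00871, adjusted p = 0.99955 from limma). In stressed against unstressed cKO mice 3 were higher and 1 lower (19.0% against 6.34%). Nrap was at 0.59 (standard error 0.25, unadjusted p = 0.0278, adjusted p = 0.753 from limma) there. Sorbs2, an adaptor of the costamere, was at 0.48 (standard error 0.19, unadjusted p = 0.02, adjusted p = 0.75 from limma). Ptk2, which encodes focal adhesion kinase, was at 0.61 (standard error 0.27, unadjusted p = 0.0378, adjusted p = 0.775 from limma). Lims1, which encodes an adaptor of the integrin-linked kinase, was at -0.62 (standard error 0.28, unadjusted p = 0.0411, adjusted p = 0.775 from limma). Of 15 genes of the dystroglycan complex, the other laminin receptor of muscle, 2 were higher and 0 lower in stressed than in unstressed cKO mice at an unadjusted limma p under 0.05 (13.3% against 6.34% of all genes). Against control mice 0 of the 15 were at such a p in stressed and 0 in unstressed cKO mice. Among the 2 was Dag1, which encodes dystroglycan itself, at a log2 fold change of 0.77 (standard error 0.34, unadjusted p = 0.0328, adjusted p = 0.77 from limma).

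Transcripts of other heart cells were present at low levels, and many matrix genes are made mainly by these cells. The 9 mural cell markers summed to 10280 to 10828 in C1 to C3, 9833 to 11546 in U1 to U3 and 5693 to 12534 in S1 to S3. Acta2 and Abcc9, which cardiomyocytes can also express, gave most of the mural sum. Of 9 leukocyte markers found, 4 passed the minimum, and Ly6g was at 0 in every library. Of 5 epicardial markers 1 passed, Wt1, and they summed to 14.2 to 44.0, 34.6 to 74.2 and 59.9 to 154 in the same order of groups. Of 4 erythroid markers 3 passed. The part of these cells in the levels of the collagen, laminin and integrin genes was not tested. In sorted nuclei measured in bulk, fewer nuclei of a type and less RNA per nucleus cannot be told apart.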

How the data were processed

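Reads of 9 libraries were mapped by the authors to mm10 with STAR and normalized with DESeq2 (versions not given in the sources used here). Annotation, counting program and strand setting were likewise not given there. Their deposited signal is a read count per gene after division by a size factor. Reads could be recovered, since 100% of the values in every library equalled a whole number of reads (tolerance 0.001). GENCODE M21, made on the same build, gave positions and exon lengths, and 49 of 66 genes had an entry in the RefSeq promoter table.

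The main test was limma 3.58.1 (R 4.3.3) with its variance trend, on log2(normalized count + 1), with the 3 groups fitted together and Benjamini-Hochberg adjustment over 13454 genes. This differs from the DESeq2 test of the study because the table holds normalized values. DESeq2 1.42.0 on the recovered reads of the groups compared and edgeR 4.0.16 with its quasi-likelihood test and TMM were alternatives. Others were a pseudocount of 4, a minimum of 50, no minimum, quantile normalization, a fit of only the groups compared, the title series as a covariate and leaving out each library. The tests were tried on simulated data. No library copied another (chi-square per degree of freedom at least 23.3 between libraries of a group). This chi-square was 64.6 to 74.6 between stressed cKO libraries and 23.3 to 43.5 within the other groups. Each library was taken as 1 mouse from the labels. Precision is set by the spread between mice.

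Genes named are, in each family, the 3 with the smallest p per direction and comparison, the 6 with the highest level per kilobase, main chains of heart matrix and the leading genes of the other lists. Values of 2 genes of the pathway and marker lists are not reported here. The text gives the rest as counts, and ratios and other genes were chosen after their values were seen. The genes and lists were chosen with earlier results of these data known.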

Additional observations from a re-analysis of the deposited data

How the results depend on the processing

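The 17 alternatives called 0 of the 66 genes. Of 62 fold changes recomputed, 61 kept their direction under each alternative that gave a value, and 7 had no value with a minimum of 50 because their genes fall below it. The exception was Lama2 between unstressed cKO and control mice (0.017 with the title series as a covariate). Leaving out 1 library moved 34 of the 62 by over 1.5 times. DESeq2 called 1 of the 62, Frem1 between both groups of cKO mice (2.87). Of 153 family medians recomputed, 16 moved by over 1 SD. For integrins against control mice, the median in stressed cKO mice was 0.60 by DESeq2 and 0.58 by edgeR, and between both groups of cKO mice it was 0.33 by DESeq2, 0.33 by edgeR, 0.37 with a minimum of 50 and 0.30 after quantile normalization; the cause was not tested. Leaving out each library in turn gave medians, for stressed cKO against control mice, of 0.082 to 0.27 for collagens, -0.26 to -0.054 for laminins and 0.22 to 0.39 for integrins. For unstressed cKO against control mice it gave -0.16 to 0.026 for laminins and 0.028 to 0.29 for integrins. Between both groups of cKO mice it gave -0.11 to 0.037 for collagens and 0.090 to 0.38 for integrins. The number of genes at an unadjusted limma p under 0.05 was then 2 to 7, with 7 without S1. No paired analysis was possible because the labels carry no replicate numbers. Genes with few reads, such as Itgb3 with 1.18 to 6.65 in control mice, are limited by depth.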
